A study of Mus musculus with 32 samples.

Results

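The glucocorticoid receptor and its classic target genes were followed in mouse gastrocnemius muscle over the day. The 10 genes were taken by symbol from a table of 16634 genes and are the receptor gene Nr3c1, the hormone-activating enzyme gene Hsd11b1, and the targets Fkbp5, Tsc22d3, Zbtb16, Sgk1, Cebpd, Cebpb, Mt1 and Mt2. All 10 were in the table, none was listed at 0 in a library, and all 10 passed the filter on low values that left 11975 genes to test. The genes were picked by symbol, but the set was chosen with earlier results of these data known. Counts of its members against all genes are therefore descriptions and no independent support.

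Corticosterone, the main glucocorticoid of mice, is released by the adrenal cortex in a daily rhythm that peaks around the onset of the dark, active phase. The receptor is held in the cytoplasm by heat shock proteins, binds the hormone, moves to the nucleus and acts on genes that carry glucocorticoid response elements or are bound by its partners. In muscle the hormone is known to raise fuel release and protein breakdown, and it also resets peripheral clocks.

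Mutant mice carried Sf1-Cre and 2 loxP-flanked Sirt1 alleles, and control mice carried the same floxed Sirt1 alleles without Cre. All mice were 10 weeks old, on a mixed genetic background, and were sampled at Zeitgeber time (ZT, hours after lights on) 0, 6, 12 or 18, with 4 mice per genotype and time and 32 libraries in all. The labels list every sample with a title number of its own. Cre and the deletion go together in this design and cannot be told apart. Sirt1 encodes a deacetylase, and the Cre driver, from the gene of the transcription factor SF1, directs its deletion to neurons of the ventromedial hypothalamus. SF1 is also a known factor of the adrenal cortex, pituitary and gonads. Where the deletion took place and the level of corticosterone were not measured here. In muscle, control mice had 5.47 ± 0.506 FPKM and mutants 5.20 ± 0.731 FPKM of Sirt1 RNA (n = 16 of each, SD), which does not check the deletion. FPKM are fragment numbers scaled by transcript length and library total, so levels of different genes can be set side by side.

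The 12 skeletal muscle markers were above 0 in all 32 libraries. A mutant ZT0 library (library 2) and a mutant ZT18 library (library 0) had the lowest array weights, 0.173 and 0.346, and mutant ZT12 library 1 came next with 0.372. The other 29 lay between 0.535 and 2.15. The fast troponin gene Tnnt3 was at 569 FPKM in that mutant ZT0 library, and its median over all libraries was 19900.0 FPKM. The mean log2 level of the skeletal muscle markers, set to 0 over all libraries, was lowest in that library (-0.88) and next lowest in mutant ZT12 library 1 (-0.54), and it was 0.14 in mutant ZT18 library 0. With all libraries 7 members passed the rhythm test over both genotypes, without the 2 libraries of lowest weight 8, and without mutant ZT12 library 1 6. FPKM carry no read numbers. Steps in low values put the relative depth of a control library at 0.989 ± 0.146 and that of a mutant library at 1.03 ± 0.151 (n = 16 of each, SD). Of the other cell types looked for, adipocyte and endothelial markers were above 0 in every library, and 8 of 12 lymphocyte markers were at 0 in at least 1 library. In bulk tissue, fewer cells of a type and less RNA per cell cannot be told apart.

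The promoters of 3 targets are shown because they carry the sequence elements these genes are known for. RefSeq promoter windows (250 bases before to 50 bases after each annotated start, GRCm38.p6, the build that mm10 names) were found for 7 of the 10 genes, 14 windows in all, and none for Nr3c1, Zbtb16 and Cebpd. The glucocorticoid response element was searched on both strands as its full palindrome, the arm AGAACA followed by 3 bases of any kind and by the reverse complement of the arm. It was found in 3 of 32851 windows of all genes, or 0.00913%, and 1 of them belongs to Sgk1. That window is chr10:21993640-21993939 on the plus strand. It is 1 of 6 windows of Sgk1, and no other of them holds the palindrome. Which Sgk1 start is used in muscle was not measured here. The palindrome, in capitals, starts 189 bases before the annotated start.

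Sgk1: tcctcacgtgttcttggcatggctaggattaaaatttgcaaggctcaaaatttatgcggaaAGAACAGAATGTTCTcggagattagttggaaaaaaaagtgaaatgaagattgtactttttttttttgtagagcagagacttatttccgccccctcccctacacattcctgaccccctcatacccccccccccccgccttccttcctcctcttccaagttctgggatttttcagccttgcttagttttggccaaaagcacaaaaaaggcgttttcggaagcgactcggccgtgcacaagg

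The neighbouring metallothionein genes Mt1 and Mt2 lie on chromosome 8, and their windows are chr8:94178839-94179138 and chr8:94172368-94172667, both on the plus strand. Capitals mark matches to a loose form of the core of the metal response element, TGCNCNC, searched on both strands. A match on the minus strand is printed as its reverse complement. The core is often written with A or G after TGC, where this search took any base. The Mt2 matches TGCTCTC and, on the minus strand, GGGAGCA have T there.

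Mt1: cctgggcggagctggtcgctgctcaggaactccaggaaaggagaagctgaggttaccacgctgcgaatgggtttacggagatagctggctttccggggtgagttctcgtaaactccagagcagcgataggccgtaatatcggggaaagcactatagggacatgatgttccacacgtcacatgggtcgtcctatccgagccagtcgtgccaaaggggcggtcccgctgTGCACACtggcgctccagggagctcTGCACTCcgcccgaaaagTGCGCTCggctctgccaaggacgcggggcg

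Mt2: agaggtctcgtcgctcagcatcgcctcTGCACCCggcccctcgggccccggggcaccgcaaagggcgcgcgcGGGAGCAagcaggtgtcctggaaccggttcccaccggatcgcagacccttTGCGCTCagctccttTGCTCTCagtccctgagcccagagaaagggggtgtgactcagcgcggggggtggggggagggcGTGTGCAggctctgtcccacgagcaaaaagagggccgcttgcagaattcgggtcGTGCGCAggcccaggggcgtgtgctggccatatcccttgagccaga

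Mt1 had 3 and Mt2 6 such matches. A window of Sgk1 other than that shown, chr10:21994416-21994715, also had 3. Windows of Fkbp5 and Hsd11b1, a window of Tsc22d3 and a further window of Sgk1 had 1 each. The share of all windows with 3 or more was not counted. The core in this loose form is common: 51.03% of all windows hold at least 1, and 2.295% hold 4 or more. The single arm AGAACA, which is also part of the palindrome, was found in 18.97% of all windows, and among the 14 windows here in 3 of Sgk1 and 1 of Tsc22d3. The E-box CACGTG of clock factors was in 7.15% of all windows and, here, once in the Fkbp5 window and once in the Sgk1 window shown. The D-box TTANGTAA was in 2.323% of all windows and in none of the 14. A match is a description of letters and not a measured site.

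Most of the genes had a daily rhythm, and the levels of most targets were highest in the dark phase. Over both genotypes, 7 of 10 genes passed the test for a 24 h rhythm (limma adjusted p under 0.05), against 11.4% of the 11975 genes tested. At an unadjusted p under 0.05 it was 9 of 10, against 24% of all genes. As the genes were chosen with earlier results of these data known, these counts are no independent support. The 7 were Nr3c1, Fkbp5, Tsc22d3, Sgk1, Cebpd, Cebpb and Mt1. The median amplitude, as log2 from mean to peak, was 0.52 over the 10 genes and 0.07 over all genes tested. Fitted peaks of the 7 lay between ZT17.2 and ZT23.8, 2 of them in the 6 h before ZT18 and 5 in the 6 h after it. Among all 1371 rhythmic genes, 15.7% peaked in the 6 h before ZT18, 31.4% in the 6 h after it, and 37.9% peaked between ZT0 and ZT6, where none of the 7 did. The peak of Nr3c1, at ZT23.8 (SE 0.984 h), was within its SE of ZT0. Nr3c1 and Fkbp5 had their highest means at ZT0.

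**Figure D1:**
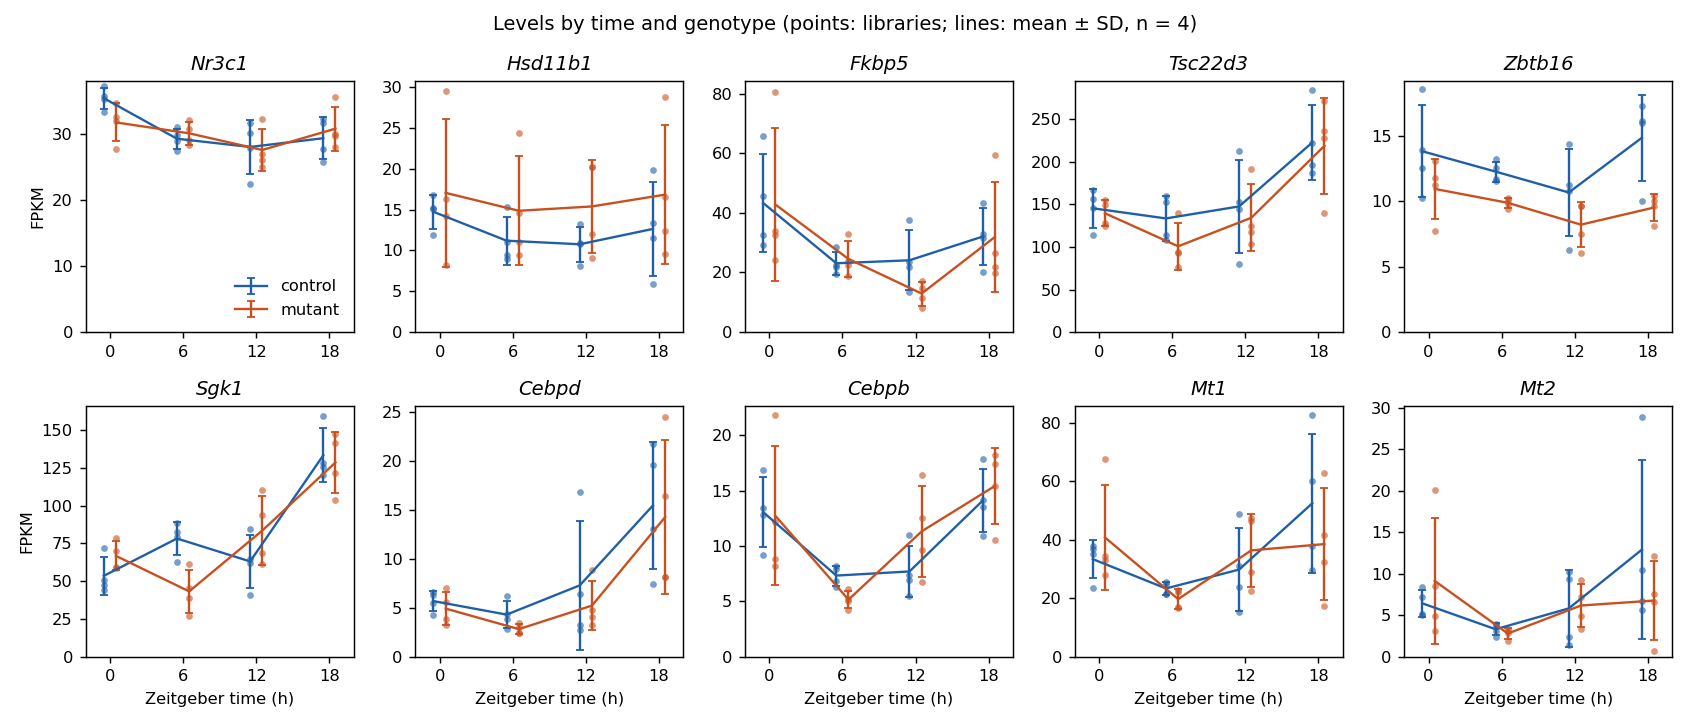
FPKM of the 10 genes (vertical axis, from 0) against Zeitgeber time in hours, with a point for each library and lines for the mean ± SD of 4 libraries in controls (blue) and mutants (orange). Tsc22d3, Sgk1, Cebpd and Cebpb are highest at ZT18 in both genotypes, Fkbp5 and Nr3c1 are highest at ZT0, and Sgk1 is lower in mutants than in controls at ZT6.

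Nr3c1 encodes the receptor itself (chromosome 18, 39410544 to 39487245, mm10, as all positions here), and its level differed little over the day. It lay between 27.8 and 37.2 FPKM at ZT0 (median 34.0), between 27.4 and 32.2 at ZT6 (median 29.4), between 22.3 and 32.2 at ZT12 (median 27.4) and between 25.7 and 35.6 at ZT18 (median 29.8), with 8 libraries a time. The 4 times overlap. The mean fell from 33.6 ± 2.91 FPKM at ZT0 to 27.8 ± 3.41 FPKM at ZT12 (SD, n = 8 each), a ratio of 1.21. The amplitude was 0.13 log2 (SE 0.0345, limma adjusted p = 0.0272) with a peak at ZT23.8. The call was lost without any of 5 single libraries (adjusted p 0.0538 to 0.0644: control ZT0 library 3, control ZT12 library 3, mutant ZT0 library 1, mutant ZT12 libraries 0 and 1), and with median-of-ratios scaling (adjusted p = 0.0566) or marker scores as covariates (0.0578).

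Hsd11b1 encodes the enzyme that turns inactive 11-dehydrocorticosterone into corticosterone inside cells (chromosome 1, 193221640 to 193264045). It was at 14.2 ± 5.69 FPKM over all libraries (SD, n = 32), from 5.84 to 29.5 FPKM, and the time means lay between 13.02 and 15.9 FPKM. No rhythm was called (amplitude 0.14, SE 0.123, limma adjusted p = 0.777). Of its partners, H6pd, which supplies the cofactor for this reaction, was at 18.2 ± 3.56 FPKM. Hsd11b2, which inactivates the hormone, was at most at 0.359 FPKM in a library. The mineralocorticoid receptor gene Nr3c2 was at 2.49 ± 0.445 FPKM, against 30.3 ± 3.43 FPKM for Nr3c1.

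Tsc22d3 encodes GILZ, a leucine zipper protein that mediates anti-inflammatory effects of the hormone, and was the most abundant of the 10 genes by FPKM (chromosome X, 140539528 to 140600522). Its libraries lay between 114.0 and 166.7 FPKM at ZT0, between 76.3 and 159.3 at ZT6, between 79.8 and 212.9 at ZT12 and between 139.5 and 284.2 at ZT18 (medians 147.5, 111.2, 134.6 and 225.0). Ranges of neighbouring times overlap. The mean rose from 117.1 ± 30.3 FPKM at ZT6 to 220.7 ± 46.6 FPKM at ZT18 (SD, n = 8 each). The amplitude was 0.46 log2 (SE 0.0852, limma adjusted p = 0.00133) with a peak at ZT18.3. ZT18 was higher than each of the other times, by 0.61 log2 over ZT0, 0.92 over ZT6 and 0.68 over ZT12 (adjusted p 0.0293, 0.000586 and 0.0364).

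Sgk1 encodes a kinase that acts on ion transport and on FoxO factors (chromosome 10, 21882183 to 21999902). Control libraries were at 72.0, 50.8, 47.4 and 43.9 FPKM at ZT0, at 82.5, 88.7, 79.1 and 62.5 at ZT6, at 64.7, 84.6, 61.7 and 41.2 at ZT12, and at 128.2, 125.2, 120.1 and 159.4 at ZT18. Mutant libraries were at 78.8, 59.6, 69.9 and 58.6 FPKM at ZT0, at 26.9, 45.7, 39.1 and 61.3 at ZT6, at 110.5, 93.5, 61.4 and 68.6 at ZT12, and at 103.4, 147.6, 141.4 and 121.6 at ZT18. In both genotypes ZT18 is highest, and only 1 library of another time, at ZT12 in mutants, reaches into its range. The lowest time differs: ZT0 in controls and ZT6 in mutants. Over both genotypes the amplitude was 0.60 log2 (SE 0.0767, limma adjusted p = 1.10e-05) with a peak at ZT17.2. ZT18 was higher than ZT0 by 1.13, than ZT6 by 1.18 and than ZT12 by 0.87 log2 (adjusted p 2.52e-05, 5.85e-06 and 0.00221).

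Cebpd, a transcription factor of the C/EBP family that responds early to hormone and cytokines, had the largest amplitude of the 10 genes. Its libraries lay between 3.23 and 7.04 FPKM at ZT0, between 2.39 and 6.18 at ZT6, between 2.71 and 16.9 at ZT12 and between 7.47 and 24.5 at ZT18. Every ZT18 library was above every library of ZT0 and ZT6. The mean was 4.17 times as high at ZT18 (14.9 ± 6.69 FPKM) as at ZT6 (3.57 ± 1.25 FPKM, SD, n = 8 each). The amplitude was 0.86 log2 (SE 0.137, limma adjusted p = 0.000229) with a peak at ZT17.9. The table gives Cebpd the same span as Spidr, chromosome 16 from 15887285 to 16146851 in mm10, and how reads were shared between them is not given in the sources used here. Spidr was between 0.575 and 1.38 FPKM, with time means from 0.934 to 1.02 FPKM.

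Cebpb, a C/EBP factor that also takes part in the receptor's action on many genes, had its trough at ZT6 (chromosome 2, 167688914 to 167690432). Controls were at 6.30, 6.86, 8.24 and 7.91 FPKM and mutants at 5.25, 6.08, 4.27 and 5.03 FPKM at that time. At ZT18 controls were at 13.5, 14.2, 10.9 and 17.8 FPKM and mutants at 10.6, 18.2, 15.4 and 17.4 FPKM, so that all 8 libraries of ZT18 lay above all 8 of ZT6. The amplitude was 0.60 log2 (SE 0.0876, limma adjusted p = 8.23e-05) with a peak at ZT19.3. The level fell by 0.90 log2 from ZT0 to ZT6 (adjusted p = 0.00339) and was 1.12 higher at ZT18 than at ZT6 (adjusted p = 7.31e-05).

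Fkbp5 encodes a co-chaperone that lowers the receptor's affinity for the hormone, in a feedback loop (chromosome 17, 28398752 to 28486149). Its time course differed in shape from that of Sgk1, with the highest mean at ZT0 and, over both genotypes, the lowest at ZT12. In controls alone the lowest mean was at ZT6 (23.1 ± 3.88 FPKM, against 24.1 ± 10.1 FPKM at ZT12, SD, n = 4 each), and in mutants at ZT12. Controls were at 32.6, 65.8, 29.2 and 45.7 FPKM at ZT0 and at 13.3, 37.7, 21.8 and 23.6 FPKM at ZT12. Mutants were at 34.0, 24.1, 32.5 and 80.6 FPKM at ZT0 and at 11.3, 8.18, 14.96 and 17.3 FPKM at ZT12. The 2 times overlap in controls and not in mutants. The level fell by 1.19 log2 from ZT0 to ZT12 (SE 0.246, limma adjusted p = 0.00292). The amplitude was 0.62 log2 (SE 0.123, adjusted p = 0.00291) and the peak at ZT22.9 (SE 0.757 h). Sgk1 peaked at ZT17.2 (SE 0.486 h) and Cebpd at ZT17.9 (SE 0.608 h), and the difference of peaks was not tested.

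Zbtb16 encodes PLZF, a zinc finger repressor that the hormone induces in many tissues (chromosome 9, 48654296 to 48835945). It was between 7.72 and 18.6 FPKM at ZT0, between 9.38 and 13.2 at ZT6, between 6.08 and 14.4 at ZT12 and between 8.12 and 17.3 at ZT18, ranges that overlap. Its rhythm did not pass (amplitude 0.19, SE 0.0670, limma adjusted p = 0.149).

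Mt1 and Mt2 encode metallothioneins, small proteins that bind zinc and copper and are induced by metals and by glucocorticoids (chromosome 8, 94179088 to 94180327 and 94172617 to 94173567). At ZT6, Mt1 lay between 16.7 and 25.4 FPKM and Mt2 between 1.90 and 4.00 FPKM. At ZT18 they spread from 17.3 to 82.4 FPKM and from 0.683 to 28.8 FPKM. Both had a narrow range at ZT6 and a wide one at ZT18, and the ranges overlap. The Mt1 amplitude was 0.47 log2 (SE 0.123, limma adjusted p = 0.0300, peak ZT18.8), and that of Mt2 0.56 (SE 0.195, adjusted p = 0.135, peak ZT19.2). Mt2 passed without mutant ZT18 library 0, where it was at 0.683 FPKM (adjusted p = 0.0184), without that library and mutant ZT0 library 2 together (0.0116) and with array weights (0.00595). Mt1 no longer passed without any of 8 single libraries (adjusted p 0.0526 to 0.0766: control ZT6 libraries 1 and 2, control ZT18 libraries 1 and 3, mutant ZT6 libraries 0 and 2, mutant ZT18 libraries 1 and 3). The ratio of Mt1 to Mt2 had a median of 5.61 and ranged from 2.86 to 25.3 over the 32 libraries.

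**Figure D2:**
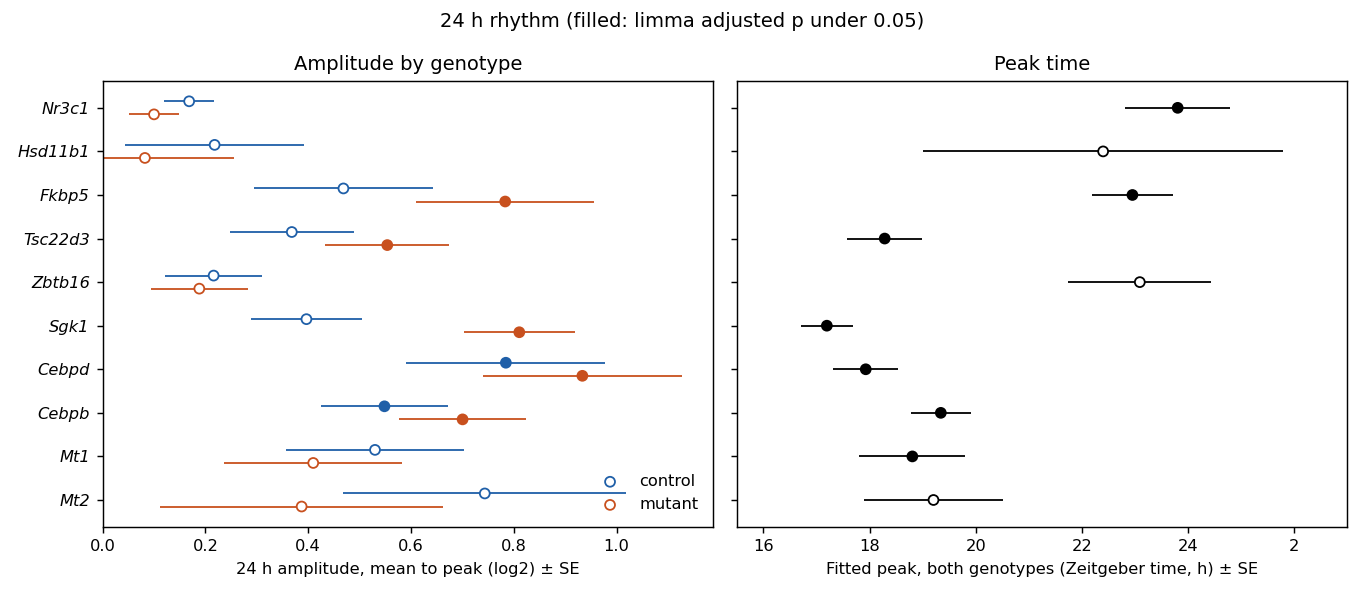
Left, 24 h amplitude in log2 from mean to peak ± SE in controls (blue) and mutants (orange). Right, fitted peak in Zeitgeber hours ± SE over both genotypes. Filled points passed limma's test. Of the 7 filled peaks on the right 5 lie between 17.2 and 19.3 h, and Fkbp5 and Nr3c1 lie at 22.9 and 23.8 h.

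Markers of other cells also changed over the day. Of 10 endothelial markers 6 passed the 24 h test, with peaks between ZT22.6 and ZT4.07, and of 10 fibroblast markers 3 passed, against 11.4% of all genes. The summed endothelial level was between 179.7 and 249.4 FPKM at ZT0 and between 150.5 and 186.8 FPKM at ZT12 over both genotypes. Of the adipocyte, lymphocyte, macrophage and neutrophil, and skeletal muscle markers 0 passed by limma's adjusted p (unadjusted p under 0.05 in 1 adipocyte and 3 skeletal muscle markers and in none of the other 2 lists). The part of these cells in the rhythms was not tested. The libraries were sequenced in 4 pools of 8, and each time has 8 libraries. Neither the pool nor the harvest day of a mouse is among the labels, and if either goes with the time, it and the time cannot be told apart.

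Within a genotype, fewer of the 10 genes passed. In controls 2 of 10 did, Cebpb and Cebpd (limma adjusted p 0.0199 and 0.0352), against 5.55% of all genes. At an unadjusted p under 0.05 it was 8 of 10 in controls, against 19.4%. In mutants 5 of 10 did, Sgk1, Cebpb, Cebpd, Tsc22d3 and Fkbp5 (adjusted p 8.14e-05, 0.00255, 0.0110, 0.0164 and 0.0196), against 3.92% of all genes. At an unadjusted p it was also 5 of 10, against 14.4%. The difference of the rhythm between genotypes passed in 0 of 10 genes and in 0 of 11975, that is 0% (limma, unadjusted p under 0.05 in 1 member and in 5.34% of all genes), so the larger number in mutants is not a shown difference. That member was Sgk1 (limma adjusted p = 0.880), with an amplitude of 0.40 (SE 0.108) in controls and 0.81 (SE 0.108) in mutants. Amplitudes in controls and mutants were 0.78 and 0.93 for Cebpd, 0.55 and 0.70 for Cebpb, 0.37 and 0.55 for Tsc22d3, and 0.47 and 0.78 for Fkbp5. They were 0.53 and 0.41 for Mt1, and 0.74 and 0.39 for Mt2. With array weights 6 genes passed in controls. Sgk1, at a limma adjusted p of 0.0645 in controls, passed there with array weights (0.00630), quantile (0.0409) or median-of-ratios scaling (0.0428) and only the groups compared (0.0386). It also passed in controls without any of control ZT0 library 0, control ZT12 library 3 and mutant ZT6 libraries 0 and 3 (0.0305 to 0.0470). Mt1 passed in controls with marker scores as covariates (0.0479). Without any of control ZT6 libraries 1, 2 and 3 or control ZT18 libraries 1 and 2, Cebpb alone passed in controls, and without control ZT18 library 3 no gene did (limma adjusted p 0.0522 for Cebpb). In mutants 3 passed without mutant ZT18 library 1. There the Tsc22d3 call was also lost without any of mutant ZT6 libraries 0 and 1 and mutant ZT18 libraries 2 and 3, and that of Fkbp5 without any of mutant ZT0 library 3 and mutant ZT12 libraries 0 and 1.

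Between genotypes over all times, none of the 10 genes passed the test, nor did more than 3 of 11975 genes (0.0251%; limma, unadjusted p under 0.05 in 1 member and in 6.48% of all genes). Means were lower in mutants for 8 of 10 genes, and for 48.7% of all genes. At single times means were lower for 6 members at ZT0 (52.5% of all genes), 7 at ZT6 (57.5%), 5 at ZT12 (36.4%) and 7 at ZT18 (55.7%). The median log2 difference was -0.10 over the 10 genes and 0.00 over all genes. Lower means of glucocorticoid-responsive genes in mutants had been seen in these data before the genes were chosen, so this count is no independent support. A lower response in mutants was not shown, as none of the 10 genes passed. The 2 genes with higher means were Hsd11b1 (0.30) and Cebpb (0.01), and the sign of Cebpb turned with quantile scaling (-0.00315) and with array weights (-0.0607). The mutant mean was also the lower one for all 12 skeletal muscle markers (median -0.10), and their part in these differences was not tested.

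**Figure D3:**
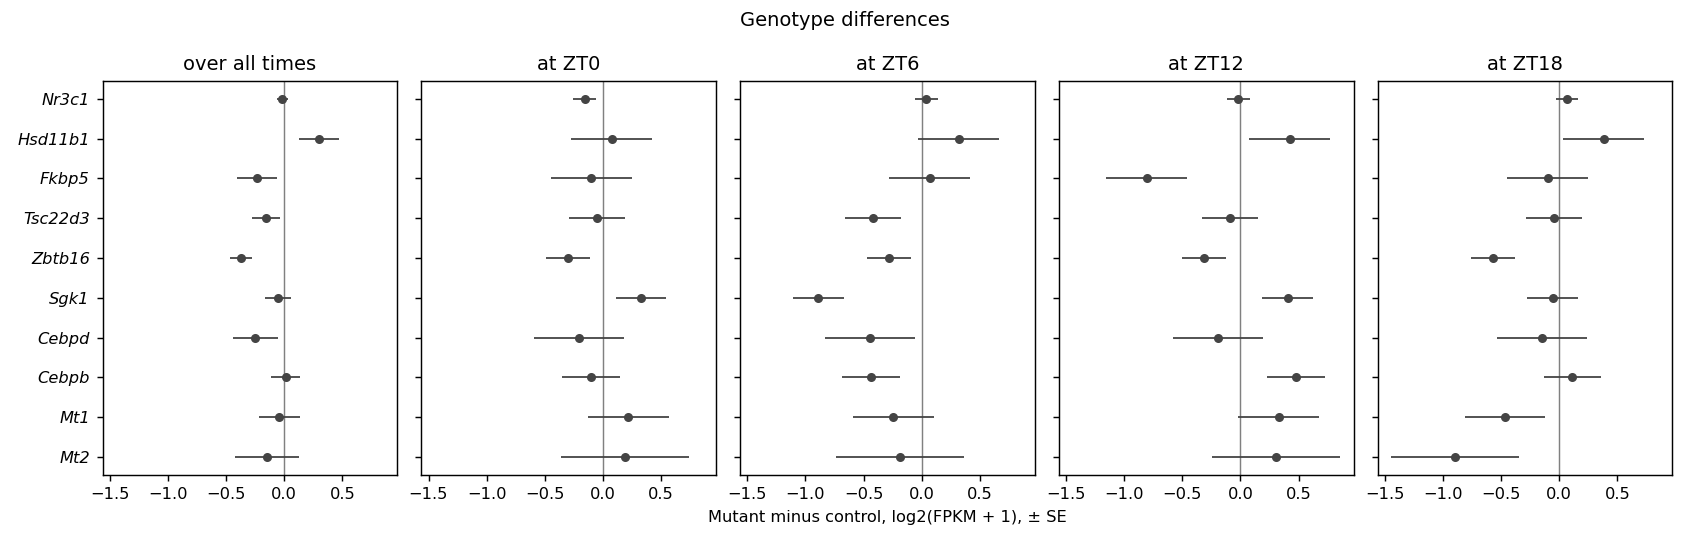
Mutant minus control in log2(FPKM + 1) ± SE for each gene, over all times and at each Zeitgeber time. Zbtb16 is below 0 in all 5 panels, and Sgk1 is above 0 at ZT0 and ZT12 (0.33 and 0.41) and furthest below 0 at ZT6 (-0.89). None of the differences passed limma's adjusted test.

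Zbtb16 had the smallest unadjusted p of the 10 over all times. Control libraries were at 12.5, 18.6, 10.3 and 13.9 FPKM at ZT0, at 11.6, 13.2, 12.6 and 11.7 at ZT6, at 6.29, 14.4, 11.3 and 10.8 at ZT12, and at 17.3, 16.2, 10.01 and 16.01 at ZT18. Mutant libraries were at 13.1, 7.72, 11.8 and 11.3 FPKM at ZT0, at 10.1, 9.38, 9.82 and 10.2 at ZT6, at 9.62, 7.54, 6.08 and 9.65 at ZT12, and at 9.61, 10.02, 10.4 and 8.12 at ZT18. The mutant mean was lower at each of the 4 times, and the groups did not overlap at ZT6. The difference over all times was -0.37 log2 (SE 0.0947, limma adjusted p = 0.555). At single times it was -0.30, -0.28, -0.31 and -0.57 at ZT0, ZT6, ZT12 and ZT18, with adjusted p of 0.689, 0.563, 0.388 and 0.9995. The dependence on time had an adjusted p of 0.838. Leaving out single libraries gave differences from -0.42 to -0.33, with adjusted p from 0.0999 to 0.908.

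Sgk1 had the largest difference at a single time among the members whose groups did not overlap. Mt2 at ZT18 differed by -0.897 log2 (SE 0.550, limma adjusted p = 0.9995), with libraries that overlapped. For Sgk1 at ZT6 the highest mutant library (61.3 FPKM) was just below the lowest control library (62.5 FPKM). The Sgk1 difference was -0.89 log2 (SE 0.217, limma adjusted p = 0.471), from -1.07 to -0.69 without single libraries. It was 0.33 at ZT0, 0.41 at ZT12 and -0.06 at ZT18 (adjusted p 0.716, 0.329 and 0.9995), and the sign at ZT18 turned with array weights (0.00577). With array weights the ZT6 difference passed (-0.87, adjusted p = 0.0362, against 0.104 to 0.830 in the other alternatives), and in that fit 232 genes passed at ZT6 in place of 2. The dependence of the Sgk1 difference on time did not pass (limma adjusted p = 0.209, and 0.0574 to 0.385 over all alternatives). Of 11975 genes 0 passed that test (0%; limma, unadjusted p under 0.05 in 1 member and in 14.1% of all genes).

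At ZT6 the libraries of 3 members, Zbtb16, Sgk1 and Cebpb, did not overlap between genotypes, and all 3 were lower in mutants. Over all genes 12.1% did not overlap at ZT6, 1046 lower and 406 higher in mutants. Markers of other cells had higher means in mutants at ZT6, in 11 of 12 lymphocyte (median 1.33 log2), 11 of 11 macrophage and neutrophil (0.44), 10 of 10 fibroblast (0.43) and 11 of 12 adipocyte markers (0.26), where 57.5% of all genes had lower means. None of them passed by limma's adjusted p (unadjusted p under 0.05 in 2, 2, 1 and 0), and their part in the ZT6 differences was not tested. Summed lymphocyte markers at ZT6 were between 6.60 and 30.2 FPKM in controls and between 6.35 and 88.9 FPKM in mutants. Cebpb at ZT6 differed by -0.44 log2 (SE 0.248, limma adjusted p = 0.505) and at ZT12 by 0.47 (SE 0.248, adjusted p = 0.318). At the other times no member was free of overlap, where 2.61% (ZT0), 7.4% (ZT12) and 2.51% (ZT18) of all genes were. Zbtb16 at ZT12 and at ZT18 and Fkbp5 at ZT12 each had 3 of 4 control libraries above all 4 mutant libraries, and so did Nr3c1 at ZT0. In the other direction, Sgk1 at ZT0 had 3 of 4 control libraries below all 4 mutant libraries. The share of all genes with such a partial separation was not counted. At ZT12 Fkbp5 differed by -0.81 log2 (SE 0.347, limma adjusted p = 0.238), and at ZT0 Nr3c1 by -0.16 (SE 0.0977, adjusted p = 0.689). At single times 0 members passed by limma's adjusted p, against 0.0167% of all genes at ZT0, ZT6 and ZT18 and 0.0251% at ZT12. At an unadjusted p under 0.05 it was no member at ZT0 (8.46% of all genes), Sgk1 at ZT6 (10.4%), Fkbp5 at ZT12 (17.4%) and Zbtb16 at ZT18 (2.88%).

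Hsd11b1, which fat also makes, had the largest difference upward. Controls ranged from 5.84 to 19.9 FPKM (median 11.7) and mutants from 8.16 to 29.5 FPKM (median 14.4, n = 16 each), ranges that overlap. The difference was 0.30 log2 (SE 0.174, limma adjusted p = 0.762), and 0.08 with adipocyte and lymphocyte scores as covariates. The adipocyte markers were higher by mean in mutants for 11 of 12 genes (median 0.33), and 0 of them passed (limma, unadjusted p under 0.05 in 1). Their summed level was between 1760.0 and 3131 FPKM in controls and between 1809 and 4661 FPKM in mutants, with no defining marker at 0. All 12 lymphocyte markers had higher means in mutants (median 0.58), with sums from 4.63 to 102.5 FPKM in controls and from 6.08 to 89.1 FPKM in mutants. At an unadjusted p under 0.05 it was 2 of these 12. The part of adipocytes and lymphocytes in the difference was not tested, and the covariate fit, built on markers of the same libraries, does not test it.

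Some of the 10 genes went together over libraries, without clear borders between sets. With the 8 group means removed, which leaves the variation between mice of a group, Mt1 and Mt2 had a Pearson r of 0.88 over 32 libraries, and Cebpb went with Mt1 (0.73) and Mt2 (0.59). Tsc22d3 went with Cebpd (0.68), Sgk1 (0.68) and Nr3c1 (0.57), and Fkbp5 with Zbtb16 (0.55). Fkbp5 with Sgk1 was at -0.12 and with Cebpb at -0.21. Sgk1 with Cebpd was at 0.498, and pairs across these sets came near it. Cebpb with Cebpd was at 0.435, Cebpd with Mt1 at 0.417, Zbtb16 with Mt1 at 0.451 and Hsd11b1 with Mt1 at 0.449. These are descriptions, since the libraries share their scaling and, in part, their group.

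**Figure D4:**
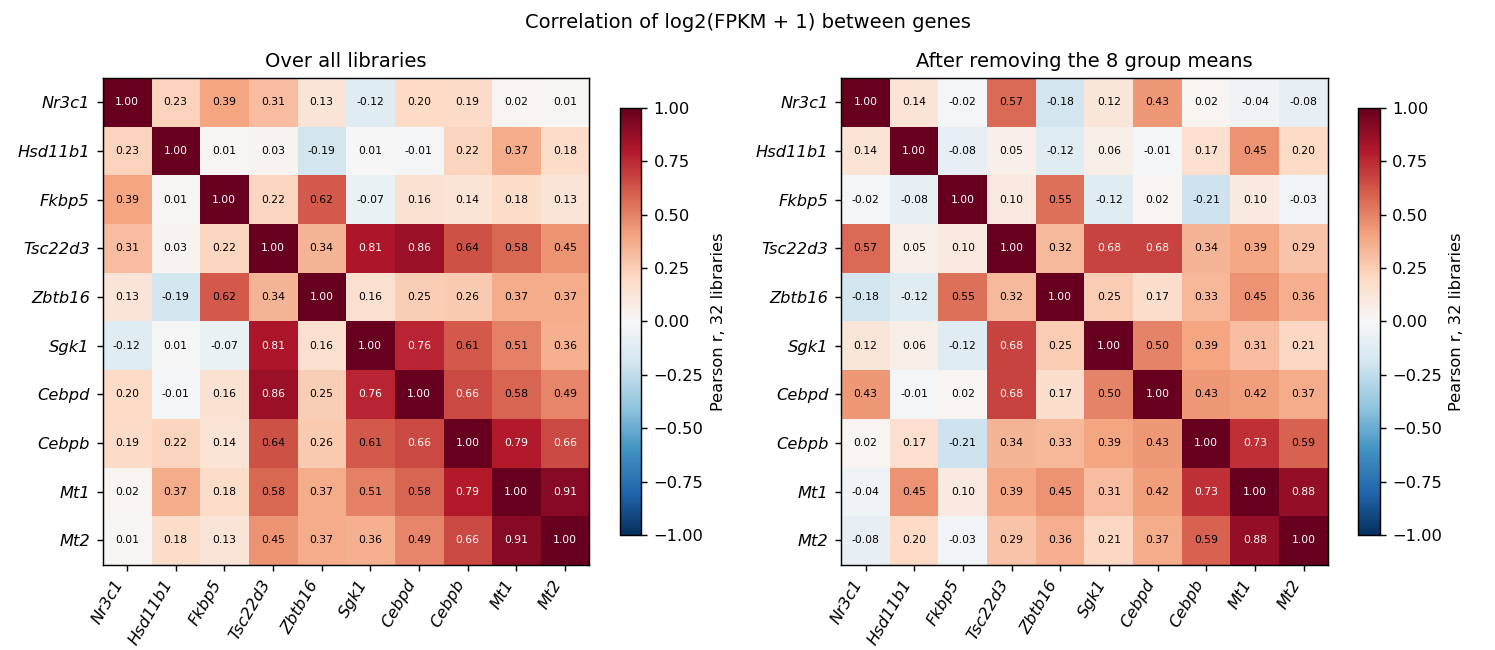
Pearson r of log2(FPKM + 1) between the 10 genes over 32 libraries, as measured (left) and after the 8 group means were removed (right), from -1 (blue) to 1 (red). The set Tsc22d3, Sgk1 and Cebpd, the set Cebpb, Mt1 and Mt2 (Mt1 with Mt2 0.91 and 0.88, Cebpb with Mt1 0.79 and 0.73) and the pair Fkbp5 and Zbtb16 (0.62 and 0.55) can be seen in both panels. The sets are not apart on the left, where Cebpb has 0.661 with Cebpd, 0.637 with Tsc22d3, 0.611 with Sgk1 and 0.658 with Mt2.

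Among 11825 genes with no value of 0, those with patterns most like each member were found by Pearson r of log2(FPKM + 1) over the 32 libraries. For Tsc22d3 they were Cebpd (0.86), Fam107a (0.85) and Ddit4 (0.845), and for Cebpd Errfi1 (0.89), Wee1 (0.89) and Ddit4 (0.88). Sgk1 was most like Gadd45g (0.83), Tcap (0.82) and Ucp3 (0.82). Cebpb was most like Npy1r, Aqp1 and Mylk4 (0.89, 0.88 and 0.88). Fkbp5 was most like Ank3 (0.86), Bach1 (0.78) and Ip6k3 (0.77), Zbtb16 like Ppp1r3c (0.71), Slc38a2 (0.70) and Ubr2 (0.66), and Nr3c1 like Arid5b (0.78), Camk2n1 (0.72) and Lonrf3 (0.71). For Mt1 the nearest after Mt2 (0.91) were Nmb (0.84) and Lrrc8a (0.835), and for Mt2 after Mt1 they were Cyb561 (0.81) and Ddost (0.80). Hsd11b1 was most like Mme (0.91), Phka2 (0.89) and Sfxn1 (0.87).

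Other genes of the pathway were counted from lists of known genes, written with earlier results of these data known. Of 35 other glucocorticoid-responsive genes of muscle 34 were tested and 17 passed the 24 h test over both genotypes, against 11.4% of all genes, with a median amplitude of 0.25. Among the 17, 10 peaked between ZT12 and ZT18 and 6 between ZT18 and ZT24. The 3 with the smallest p were Per2 and Per1, clock repressors with glucocorticoid response elements, and Arrdc2, an alpha-arrestin. Their amplitudes were 1.25, 1.43 and 1.69 log2 (limma adjusted p 1.01e-09, 1.24e-09 and 4.37e-08), above the 0.86 of Cebpd. Their peaks were at ZT17.3, ZT15.7 and ZT16.6. Per1 was at 3.29 ± 1.94 FPKM at ZT6 and at 19.9 ± 5.55 FPKM at ZT18 (SD, n = 8 each). Arrdc2 was at 3.43 ± 2.91 FPKM and 34.7 ± 10.2 FPKM at these times. Between genotypes over all times means in mutants were the lower ones for 26 of the 34 (median -0.08), and 0 passed (limma, unadjusted p under 0.05 in 6). This direction was known of these data before and is no independent support.

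**Figure D5:**
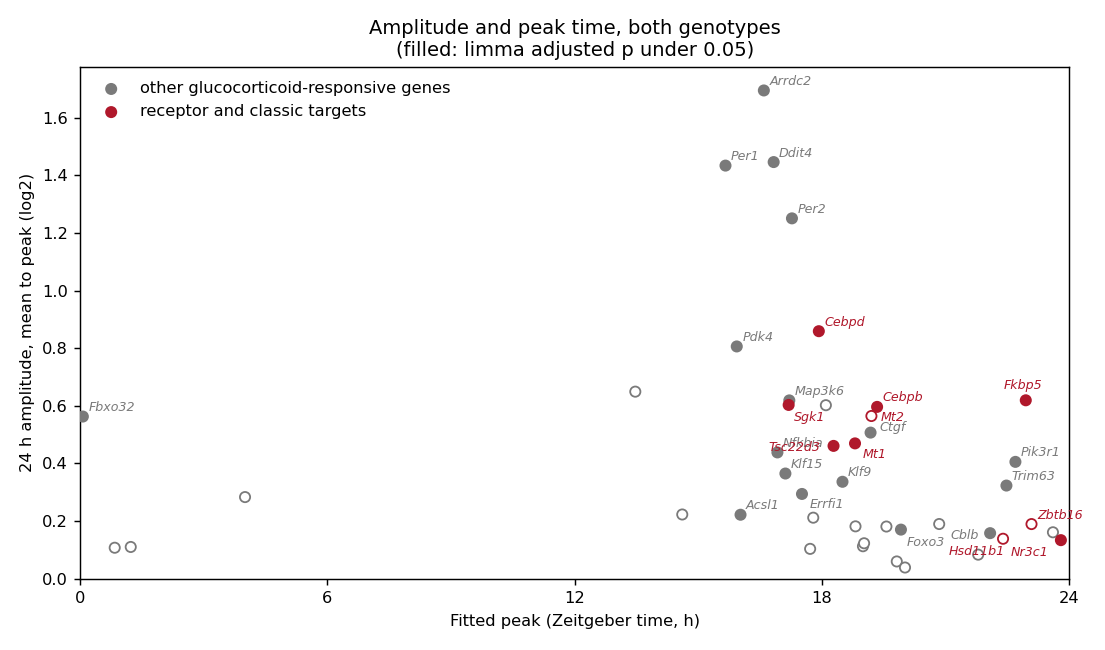
24 h amplitude in log2 from mean to peak (vertical axis) against fitted peak in Zeitgeber hours (horizontal axis) over both genotypes, for the 10 genes (red) and 34 other glucocorticoid-responsive genes (grey). Filled points passed limma's test. All filled points but Fbxo32, an atrophy ubiquitin ligase gene that peaked at ZT0.06, lie between ZT12 and ZT24.

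Of 25 receptor cofactors and chaperones 6 passed, against 11.4% of all genes. Nrip1, a corepressor of nuclear receptors, had an amplitude of 0.61 and a peak at ZT16.7 (limma adjusted p = 2.59e-07). Cry1, a clock repressor that also binds the receptor, peaked at ZT1.46 (amplitude 0.45, adjusted p = 2.30e-06), and the coactivator gene Ncoa1 at ZT5.56 (0.12, adjusted p = 0.00809). The median amplitude of this list was 0.08, close to the 0.07 of all genes. Of 5 tested genes of hormone metabolism and transport 1 passed (11.4% of all genes), Abcb1a, an efflux pump, with a peak at ZT21.9 (0.27, adjusted p = 0.000334).

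Relatives of the targets were tested in the same way, and the share to read each count against is again 11.4% of all genes. Of 7 tested C/EBP and bZIP partners 3 passed, and all 3 peaked after lights on: Nfil3, a repressor, at ZT0.839 (amplitude 0.77, limma adjusted p = 9.43e-06), the stress factor Ddit3 at ZT1.92 (0.27, adjusted p = 0.000376) and Cebpg at ZT1.12 (0.17, adjusted p = 0.00231). Of 19 tested relatives of Tsc22d3, Sgk1, Fkbp5 and Zbtb16 2 passed, a share near that of all genes. They were Zbtb7b and Zbtb7a, at amplitudes of 0.25 and 0.21 (adjusted p 7.91e-05 and 0.000777). Of 12 tested metal response genes 4 passed. Slc30a1, the zinc exporter that metal also induces, peaked at ZT15.9 (0.26, adjusted p = 3.80e-06), the zinc importer Slc39a10 at ZT2.75 (0.27, adjusted p = 0.000128) and Txnrd1, a thioredoxin reductase, at ZT22.7 (0.22, adjusted p = 0.000958). Of 16 tested acute phase and STAT3 genes 6 passed. Pim1, a kinase, peaked at ZT3.09 (0.83, adjusted p = 3.26e-06), Jak2 at ZT19.8 (0.23, adjusted p = 0.00332) and the interleukin-6 receptor gene Il6ra at ZT21.4 (0.35, adjusted p = 0.00455). In none of these lists did a gene pass a genotype contrast by limma's adjusted p. Over all times an unadjusted p under 0.05 was found in 2 cofactors, 0 metabolism genes, 1 metal gene, 0 C/EBP genes, 0 relatives and 1 acute phase gene, against 6.48% of all genes.

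With 4 times, the remaining contrast sets ZT0 and ZT12 against ZT6 and ZT18, a 12 h component that the 24 h test leaves out. It passed in 0 of 10 genes and in 0.0668% of all genes (limma, unadjusted p under 0.05 in 1 member and in 14.1% of all genes). That member was Sgk1, lower at ZT0 and ZT12 by 0.41 log2 units on average over both genotypes (value -0.41, SE 0.108, adjusted p = 0.124). Pairs of times place the changes of the 10 genes in the day. From ZT6 to ZT18 5 genes rose, Sgk1, Cebpd, Cebpb, Tsc22d3 and Mt1, against 7.23% of all genes in either direction. All 10 had higher means at ZT18 than at ZT6, where 50.2% of all genes had lower ones. All 10 also had higher means at ZT18 than at ZT12 (48.5% of all genes lower) and lower means at ZT6 than at ZT0 (52.9% of all genes lower). From ZT12 to ZT18 3 rose, Sgk1, Cebpd and Tsc22d3 (1.69%). From ZT0 to ZT18 Sgk1, Cebpd and Tsc22d3 rose (6.16%), and 4 members had an unadjusted p under 0.05, against 21.6% of all genes. From ZT0 to ZT12 Fkbp5 and Nr3c1 fell (5.71%), from ZT0 to ZT6 Cebpb fell (3.69%), and from ZT6 to ZT12 none passed (2.35%, limma, unadjusted p under 0.05 in 2 members and in 12.1% of all genes). With only the compared times fitted, 1 gene passed from ZT12 to ZT18 in place of 3, as it did without control ZT18 library 3. Without mutant ZT0 library 1, 2 passed from ZT0 to ZT6.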

How the data were processed

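RNA of 32 gastrocnemius muscles was sequenced from stranded mRNA libraries in single-end runs of 100 cycles, per the labels' protocols, in 4 pools of 8 samples. The labels do not say which sample was in which pool. The authors deposited 1 FPKM value per gene and library. Per the submitters' processing notes the build was mm10. The programs for alignment and quantification are not given in the sources used here. In the table, the deposited columns named WT and TG were taken as control and mutant by genotype and time, and their numbers name a library only.

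Values were tested on log2(FPKM + 1), which understates changes of low genes, for 11975 of 16634 genes with at least 1 FPKM in at least 4 libraries. Limma 3.58.1 in R 4.3.3 fitted 8 group means (trend in the prior, residual df 24, prior df 3.37), 2-sided, with Benjamini-Hochberg adjustment over all genes tested. Rhythms are F tests of 24 h cosine and sine contrasts. Tested on simulated data, the rhythm test recovered 97% of amplitudes of 0.5 log2, and 3.43% of its calls were false. The genotype test recovered 96% of differences of 0.5, and 5.8% of its calls were false. Each simulation changed 200 of 11975 genes, and its noise was normal and independent between genes and libraries. In the data 3 genes passed between genotypes over all times, and with so few the adjusted threshold is stricter than in the simulation. The genotype rates therefore do not tell whether a difference of 0.5 in a member would have been called. The rhythm rates are averages over genes, and a single member can differ from them. Mt2, with an amplitude of 0.56 over both genotypes, did not pass (limma adjusted p = 0.135). No absolute depth can be had from FPKM. In 878 genes, 65.3% of low values were whole multiples of a step to within 0.1, against 20% with no steps. That is too few to recover reads, and no count model was used. The 496 library pairs had r from 0.931 to 0.988, and none was identical.

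Named are all 10 members, the 3 genes most like each, and at most 3 rhythmic genes per list. A few other genes (Spidr, Tnnt3, H6pd, Hsd11b2, Nr3c2, Sirt1, Fbxo32) are named as context and were chosen after their values were seen. Members and lists were chosen with earlier results of these data known. Alternatives were a pseudocount of 0.1, no filter, a mean of at least 5 FPKM, quantile and median-of-ratios scaling, array weights, marker scores as covariates, only the compared groups, and each library left out. Leaving out the 2 libraries of lowest weight was chosen after seeing the data. P-values measure the spread between samples of a group.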

Additional observations from a re-analysis of the deposited data

Results flagged for a closer look

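In 2 of the 80 groups of 4 libraries looked at (10 genes in 8 groups), a library lay far from the other 3, and chance flags about 1 group in 20. Fkbp5 in mutant ZT18 library 0 was at 59.3 FPKM, and the other 3 libraries lay between 19.9 and 26.5 FPKM. Mt1 in mutant ZT0 library 2 was at 67.5 FPKM, and the other 3 lay between 28.0 and 34.3 FPKM. In the same mutant ZT0 library Mt2 was at 20.03 and Cebpb at 21.8 FPKM, both the highest of their group. These are the 2 libraries with the lowest array weights. Without them the 24 h rhythm over both genotypes was called in 8 members, and with them in 7.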

How the results depend on the processing

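Of 3586 values recomputed under an alternative, 3511 kept their direction and side of the threshold, 35 lost a call, 16 gained one and 24 changed sign. These values are those of the members and, for the 24 h rhythm over both genotypes, also of the rhythmic genes named per list. All calls lost or gained and all changed signs were of members, so the share kept is lower for members alone. Sgk1, Cebpd, Cebpb, Tsc22d3 and Fkbp5 kept the 24 h call over both genotypes in every alternative run. In mutants the Fkbp5 call was lost with array weights (adjusted p = 0.101) and in the fit of the compared groups alone (0.0854), and in controls that of Cebpd without the filter (0.0518) and with only the groups compared (0.0532). The cause of the changes below was not tested. The number of members with a 24 h rhythm in controls went from 2 to 1 without the filter and to 6 with array weights, and lay between 0 and 3 without single libraries. In mutants it lay between 3 and 5 without single libraries. With array weights 1 member passed at ZT6 between genotypes. From ZT0 to ZT12, 1 member passed with array weights and 1 with only the groups compared. From ZT0 to ZT6, 2 passed with only the groups compared, and 1 to 2 without single libraries. From ZT12 to ZT18, 1 passed with only the groups compared, and 1 to 4 without single libraries. Signs changed only for genotype differences that were not called. Cebpb over all times was -0.00315 with quantile scaling, -0.0607 with array weights, -0.0407 with marker scores as covariates, -0.0179 without the 2 libraries of lowest weight, and -0.0577 to 0.0624 without single libraries. Nr3c1 was 0.00233 with marker scores. Without single libraries Mt1 ranged from -0.11 to 0.0403 and Mt2 from -0.256 to 0.0110. Sgk1 at ZT18 was 0.00577 with array weights, 0.0427 without the 2 libraries of lowest weight, and -0.127 to 0.0427 without single libraries. Over all genes, calls of a 24 h rhythm over both genotypes went from 1371 to 799 with a mean of at least 5 FPKM, which tests fewer genes, and to 2136 with array weights. In controls they went from 665 to 390 and 2233, to 1061 without the 2 libraries of lowest weight and to 1221 with only the groups compared. In mutants they went from 470 to 287, to 752 and, with only the groups compared, to 249. Genotype calls at ZT6 went from 2 to 232 with array weights and at ZT12 from 3 to 471 without the 2 libraries of lowest weight. With a mean of at least 5 FPKM, genotype calls were 1 over all times (from 3) and 0 at ZT0, ZT6, ZT12 and ZT18 (from 2, 2, 3 and 2), and 1 gene had a 12 h component (from 8). That setting left 274 calls from ZT0 to ZT6 (from 442), 376 from ZT0 to ZT12 (684), 381 from ZT0 to ZT18 (738), 149 from ZT6 to ZT12 (281) and 542 from ZT6 to ZT18 (866). Without single libraries, ZT12 genotype calls ranged from 2 to 446 (446 without mutant ZT12 library 3, 262 and 96 without mutant ZT0 libraries 2 and 3, 6 without mutant ZT18 library 1, 5 without mutant ZT6 library 0). Calls for dependence on time ranged from 0 to 93 (93 and 21 without mutant ZT0 libraries 3 and 2, 25 without mutant ZT12 library 3), none of them a member. Ranges were 3 to 4 over all times, 2 to 3 at ZT0, 1 to 2 at ZT6, 0 to 3 at ZT18, 3 to 20 for the 12 h component, 281 to 546 from ZT0 to ZT6 and 99 to 319 from ZT12 to ZT18. For the 24 h rhythm they were 1192 to 1488 over both genotypes, 471 to 948 in controls and 340 to 571 in mutants. Quantile scaling left 0 at ZT6 and ZT18. Array weights gave 1 at ZT0, 10 at ZT12, 42 for dependence on time (from 0), 437 from ZT0 to ZT12, 1996 from ZT6 to ZT18 and 418 from ZT12 to ZT18 (from 202). Without the 2 libraries of lowest weight there were 1 at ZT18, 22 for dependence on time and 477 from ZT0 to ZT18. With only the groups compared there were 0 at ZT12, 1 at ZT18, 351 from ZT0 to ZT12, 417 from ZT0 to ZT18 and 95 from ZT12 to ZT18. No paired analysis was possible because the labels give no replicate numbers and the numbers in the column names match no single mouse. Depth is unknown, so no limit from depth can be given.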
